A study of Mus musculus with 18 samples.

Results

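Iron and heme handling in the kidney was described with 10 genes: Hmox1, Alas1, Fth1, Ftl1, Tfrc, Slc40a1, Slc11a2, Cp, Ireb2 and Fech. They were chosen by gene name for their known roles, with earlier results of these data known, and they are 10 of the 32675 genes in the deposited table. All 10 passed the filter on low counts, which kept 20251 genes. Right kidneys were taken from wild-type male C57BL/6 mice, 6 weeks old before the experiment began, and the poly(A) RNA of 18 kidneys was sequenced, 1 library per mouse. Ctrl mice (n = 6) were handled each day and met no aggressor. PBS mice (n = 6) went through chronic social defeat stress (CSDS), 10 min of defeat by a resident CD-1 male each day for 2 weeks, with a daily intraperitoneal injection of phosphate-buffered saline. FLX mice (n = 6) had the same defeat and received fluoxetine (FLX), a selective serotonin reuptake inhibitor, at 10 mg per kg each day in that saline. No injection of Ctrl mice is described, so defeat and injection cannot be told apart in PBS versus Ctrl. No undefeated group received FLX. In the FLX comparisons, an effect of the drug itself therefore cannot be told apart from one on the changes that came with defeat.

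The study deleted 1 PBS mouse for excessive expression of inflammatory factors, without naming it. PBS replicate 6 was taken to be this mouse, since its neutrophil markers summed to 66.3 FPKM (fragments scaled to transcript length and to library size) against 7.04 to 25.8 in the other PBS mice. The main values therefore rest on 17 mice, with 5 in the PBS group, and PBS replicate 6 is given beside them. Total counts per library lay between 72149987 and 79061296 in 14 mice and between 48928823 and 52073640 in FLX replicates 3 to 6. Every member had at least 1662 counts in every mouse, so counting error was small for all of them. All 8 proximal tubule markers were detected in each group, and they summed to 5787 FPKM in PBS replicate 6 and to at least 20425 FPKM in every other mouse. Most of this sum was 1 gene, Kap, at 4720 FPKM in PBS replicate 6 and at least 17873 in every other mouse. In PBS replicate 6, Slc5a2 (149 FPKM) and Slc5a12 (29.2) were near the means of the other 5 PBS mice (142 and 28.2). The remaining markers were below all 5.

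The kidney filters iron from the blood and takes it back in the tubule, where transferrin, free iron and heme enter cells by separate receptors and transporters. Inside the cell, iron is stored in ferritin, built into heme and iron-sulfur clusters in mitochondria, or exported by ferroportin. Heme that is broken down by heme oxygenase returns its iron to the same pool. A pair of iron regulatory proteins links these steps: when iron is scarce they bind a hairpin in the messenger RNA, the iron-responsive element, which blocks translation when it lies in the 5′ UTR and protects the messenger from decay when it lies in the 3′ UTR.

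These hairpins are shown because the place of such an element in the messenger is tied to how it acts. Transcripts of GENCODE vM21 (GRCm38) were searched on the sense strand for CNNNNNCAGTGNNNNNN, 17 bases in which the 5 bases before the loop CAGTGN pair with the 5 bases after it, G with T allowed. The form was found 7 times in UTRs of 4 members. Fech is not covered by this count, since any match in it was left out, so whether it carries the form is not reported. Over all protein-coding genes, counted without that omission, 161 of 21901 (0.735%) had the form in a UTR. A match is a description of the letters and no proof of binding. Elements of another form are not found by this search, such as the one known from a 3′ UTR of Slc11a2, whose stem is bulged. Each is printed 5′ to 3′ over 29 bases, as DNA, with the loop in capitals, and each lies inside the bounds that the deposited table gives for its gene.
Fth1 5′ UTR, chr19:9982732-9982760, plus strand: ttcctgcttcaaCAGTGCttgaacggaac
Ftl1 5′ UTR, chr7:45459779-45459807, minus strand: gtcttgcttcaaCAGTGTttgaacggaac
Slc40a1 5′ UTR, chr1:45925465-45925493, minus strand: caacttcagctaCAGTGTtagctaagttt
Tfrc 3′ UTR, chr16:32631219-32631247, plus strand: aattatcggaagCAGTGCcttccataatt
Tfrc 3′ UTR, chr16:32631598-32631626, plus strand: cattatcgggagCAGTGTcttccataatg
Tfrc 3′ UTR, chr16:32631663-32631691, plus strand: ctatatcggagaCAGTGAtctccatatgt
Tfrc 3′ UTR, chr16:32631710-32631738, plus strand: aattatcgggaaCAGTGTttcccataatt
The hairpins of both ferritins share the same stem next to the loop, and Tfrc carries 4 hairpins with different stems.

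PBS mice had more RNA of Alas1 and Cp than Ctrl mice. FLX mice had more Cp and less Slc11a2 RNA than Ctrl mice, and less Tfrc RNA than PBS mice. No gene of iron storage or of the regulators among the members passed in any comparison. In PBS versus Ctrl, 2 of the 10 members passed an adjusted p of 0.05 in edgeR's quasi-likelihood test, both higher, against 3.81% of all genes tested. For FLX versus PBS the count was 1 of 10, lower, against 0.726% of genes, and for FLX versus Ctrl it was 2 of 10, 1 higher and 1 lower, against 3.67%. At the study's threshold, an absolute log2 fold change over 1 with an unadjusted p under 0.05, the members were Hmox1, Alas1 and Cp in PBS versus Ctrl (3 of 10, against 3.28% of genes) and Alas1 and Tfrc in FLX versus PBS (2 of 10, against 1.9%). No member reached it in FLX versus Ctrl, where 2.24% of genes did. The groups did not overlap in FPKM for 3 members in PBS versus Ctrl (3.52% of genes), for none in FLX versus PBS (2.92%) and for 3 in FLX versus Ctrl (3.4%). All 3 in FLX versus Ctrl were higher, as were 2.67% of genes, with 0.731% lower. In FLX versus PBS, 2.45% of genes lay wholly higher and 0.469% wholly lower. FPKM of FLX mice ran slightly high over all genes. The median difference in log2(FPKM + 0.1) was 0.076 from PBS and 0.063 from Ctrl. This limits statements that FLX mice lie wholly above another group. The comparisons share mice, so they are not independent of each other. With all 6 PBS mice, 3 members passed in PBS versus Ctrl (4.28% of genes), 0 in FLX versus PBS (0.557%; 6 members had an unadjusted p under 0.05 in edgeR, as had 12.2% of genes) and 2 in FLX versus Ctrl (1.77%). Whether a lower level reflects fewer cells that express a gene or less RNA per cell cannot be told apart in bulk kidney RNA.

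**Figure D1:**
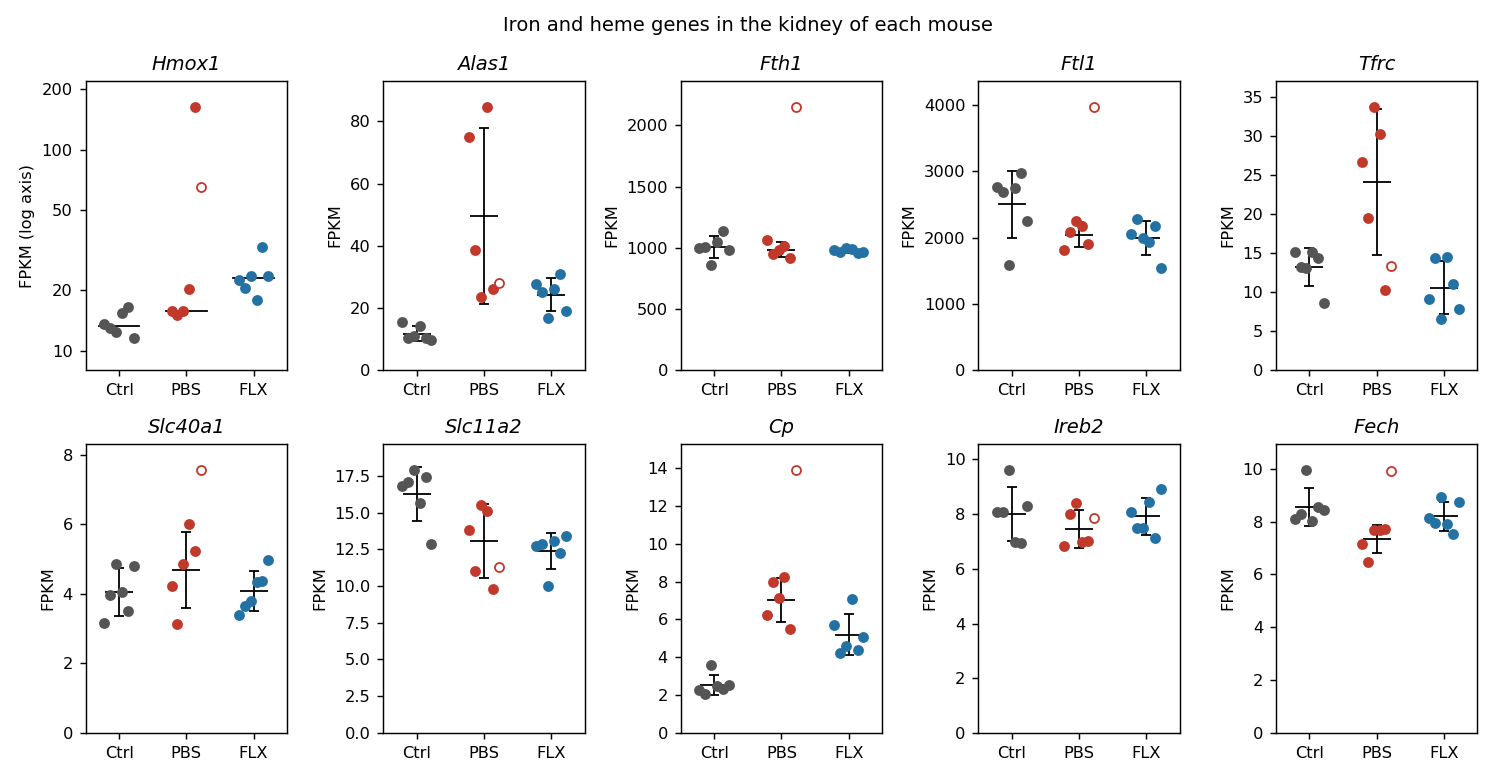
FPKM of the 10 members in each mouse of the Ctrl, PBS and FLX groups, with PBS replicate 6 as an open circle. Bars are mean ± SD without that mouse (for Hmox1, on a log axis, the line is the median); Alas1 and Cp of all PBS and FLX mice lie above every Ctrl mouse, and PBS replicate 6 holds the highest Fth1, Ftl1, Slc40a1 and Cp.

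**Figure D2:**
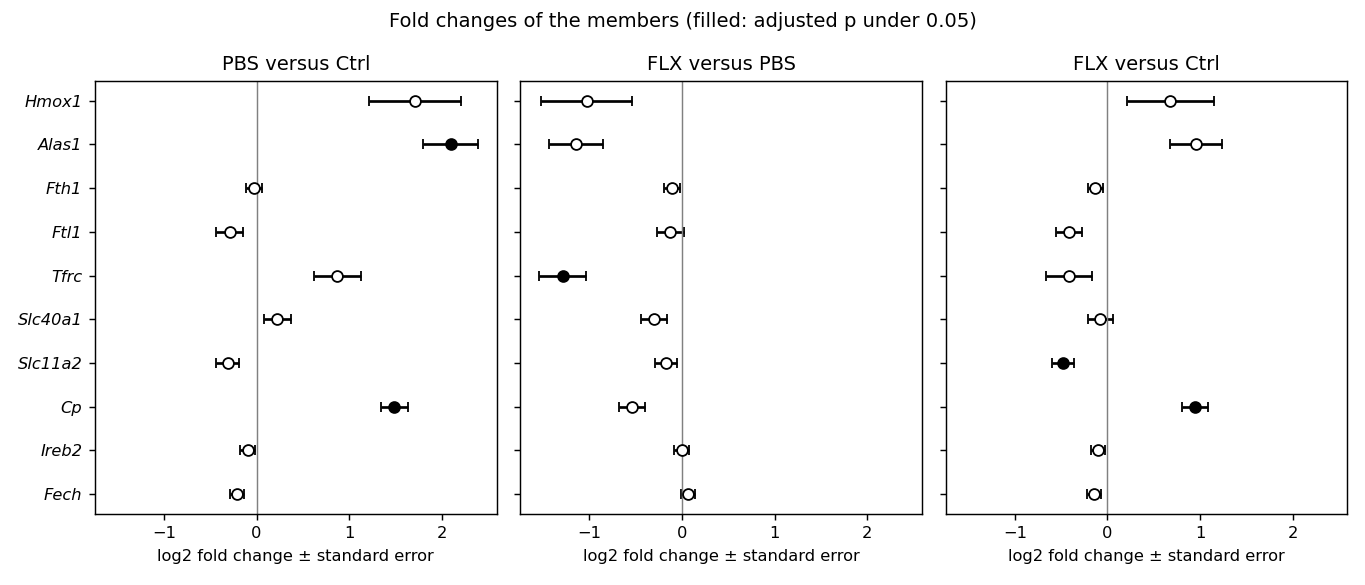
log2 fold change ± SE of the 10 members from edgeR in PBS versus Ctrl, FLX versus PBS and FLX versus Ctrl, over 5 PBS mice. Filled points have an adjusted p under 0.05: Alas1 and Cp in the first panel, Tfrc in the second, Slc11a2 and Cp in the third.

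Heme synthesis starts in mitochondria with Alas1 (ENSMUSG00000032786, chr9:106233455-106248654, minus strand), the 5-aminolevulinate synthase of all cells other than red cell precursors and the rate-limiting enzyme of the pathway. Ctrl mice had 9.61 to 15.5 FPKM (median 10.7, n = 6). The 5 PBS mice had 74.9, 38.5, 23.5, 84.6 and 26.1 FPKM, and FLX mice had 16.8 to 30.8 (median 25.6, n = 6). Every PBS and every FLX mouse was above every Ctrl mouse, and PBS replicates 1, 2 and 4 were above all FLX mice. Alas1 rose from 11.8 ± 2.42 FPKM (SD, n = 6) in Ctrl to 49.5 ± 28.4 (SD, n = 5) in PBS, a log2 fold change (log2FC) of 2.10 (standard error, SE, 0.30, adjusted p = 0.000612 from edgeR). The exact permutation test on log2(FPKM + 0.1) gave p = 0.00216, the smallest this design allows. FLX mice, at 24.3 ± 5.31 FPKM (SD, n = 6), differed from PBS mice by -1.14 on the log2 scale (SE 0.29, adjusted p = 0.0825). Of the 6 FLX mice, 2 were lower than all PBS mice, and this difference did not pass. It passed only without PBS replicate 3 (-1.33, adjusted p = 0.0307), without PBS replicate 5 (-1.31, adjusted p = 0.0318) and with DESeq2 (adjusted p = 0.0201). Those are 2 of 17 fits with 1 mouse left out (adjusted p up to 0.274) and 1 of 12 other alternatives (adjusted p up to 0.820). FLX versus Ctrl was 0.95 (SE 0.28, adjusted p = 0.0661 from edgeR), with 6 of 6 FLX mice above every Ctrl mouse (exact permutation p = 0.00216). It passed in 4 of 17 fits with 1 mouse left out (adjusted p up to 0.135). Among 12 other alternatives 6 passed, with adjusted p from 0.00607 in the fit of these 2 groups alone up to 0.360. PBS replicate 6 had 28.1 FPKM, and the PBS versus Ctrl difference was 1.98 with it (adjusted p = 0.00142).

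Of the 14 heme synthesis genes, Alas1 was the only one to pass in PBS versus Ctrl, against 3.81% of all genes called. The median log2 fold change of the 14 genes was -0.14, against -0.01 over all genes, with 3 of 14 above 0. Alas2, the synthase of red cell precursors, had 0.590 ± 0.556 FPKM in Ctrl (SD, n = 6) and 1.73 ± 1.83 in PBS (SD, n = 5), with adjusted p = 0.280. It was highest in PBS replicates 2 and 4, at 3.58 and 3.87 FPKM, the mice with the highest summed red cell markers, at 2137 and 1155 FPKM. Red cell markers summed to 47.7 to 781 FPKM in Ctrl, 150 to 2137 in PBS and 39.5 to 302 in FLX, and none of the 8 markers tested passed in any comparison. The part of red cells in the Alas1 values was not tested; PBS replicate 1, second highest for Alas1, had 302 FPKM of these markers. Clpx, a subunit of the mitochondrial protease that also activates the synthase protein, had 37.2 ± 3.37 FPKM in Ctrl (SD, n = 6), 30.1 ± 5.48 in PBS (SD, n = 5) and 44.1 ± 3.56 in FLX (SD, n = 6). All 6 FLX mice had more Clpx than every PBS mouse, a log2FC of 0.46 (SE 0.10, adjusted p = 0.0326), which did not pass with all 6 PBS mice (adjusted p = 0.0844).

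Fech (ENSMUSG00000024588, chr18:64452914-64490251, minus strand) encodes ferrochelatase, which inserts iron into protoporphyrin at the last step. It lay between 8.01 and 9.96 FPKM in Ctrl (median 8.37, n = 6), at 7.17, 6.49, 7.67, 7.68 and 7.71 in the 5 PBS mice, and between 7.54 and 8.93 in FLX (median 8.04, n = 6). All 5 PBS mice were below every Ctrl mouse (exact permutation p = 0.00216), but the difference was small, at -0.21 on the log2 scale (SE 0.07), and its adjusted p was 0.124 in edgeR (0.0450 with upper-quartile scaling). With PBS replicate 6, at 9.91 FPKM, the groups overlapped and the difference was -0.14 (adjusted p = 0.369). FLX differed from PBS by 0.07 (adjusted p = 0.818) and from Ctrl by -0.15 (adjusted p = 0.255), both in edgeR. In FPKM, which ran slightly high in FLX mice, 5 of 6 FLX mice were above all 5 PBS mice (exact permutation p = 0.0195). With all 6 PBS mice, 0 of 6 were (exact permutation p = 0.361). First and last enzymes of the pathway therefore gave opposite signs in PBS versus Ctrl, and only the first passed with the scaling used throughout.

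Hmox1 (ENSMUSG00000005413, chr8:75093621-75100589, plus strand) encodes heme oxygenase 1, the inducible enzyme that splits heme into biliverdin, carbon monoxide and iron. Ctrl mice had 11.6 to 16.6 FPKM (median 13.3, n = 6) and FLX mice 17.97 to 32.9 (median 22.9, n = 6). The PBS mice had 15.8, 15.1, 15.7, 20.2 and 163 FPKM. One mouse, PBS replicate 5, thus decided the PBS mean of 46.0 ± 65.4 FPKM (SD, n = 5), and the other 4 PBS mice lay at 16.7 ± 2.37 (SD, n = 4), between Ctrl and FLX. PBS versus Ctrl gave a log2FC of 1.71 (SE 0.50, adjusted p = 0.0648 from edgeR), and without PBS replicate 5 it gave 0.30 (SE 0.15, adjusted p = 0.352). With PBS replicate 6, at 65.5 FPKM, it was 1.80 and passed (adjusted p = 0.0385). FLX versus PBS was -1.03 (adjusted p = 0.452) and changed sign to 0.38 (adjusted p = 0.305) without PBS replicate 5. All 6 FLX mice had more Hmox1 than every Ctrl mouse, 23.5 ± 5.06 against 13.8 ± 1.89 FPKM (SD, n = 6 each; exact permutation p = 0.00216). In edgeR this difference was 0.68 (SE 0.47, adjusted p = 0.441) while the spread was shared with the PBS mice, and the adjusted p was 0.0195 for the same size in the fit of FLX and Ctrl mice alone and 0.0150 without PBS replicate 5. FLX versus Ctrl passed under no other alternative, and DESeq2 gave no adjusted p for Hmox1.

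PBS replicate 5 also had the most RNA of brown fat genes. Fat that holds brown fat cells lies next to the mouse kidney. All 6 listed brown fat markers were detected in each group, and they summed to 23.4 to 90.2 FPKM in Ctrl, 39.9 to 584 in PBS and 30.1 to 305 in FLX, with 584 in PBS replicate 5 and 305 in FLX replicate 5. Ucp1, the uncoupling protein that defines brown fat, had 214 FPKM in PBS replicate 5 and 1.75 to 20.8 in the other 4 PBS mice. FLX replicate 5 had the highest Hmox1 of its group, 32.9 FPKM, whereas PBS replicate 6 had 65.5 FPKM of Hmox1 with a brown fat sum of 24.2 FPKM. All 6 markers had a log2FC above 0 in PBS versus Ctrl (median 3.37), a value that PBS replicate 5 weighs on. The marker sums of the other 4 PBS mice, 39.9 to 108 FPKM, overlapped Ctrl. Elovl3 passed (adjusted p = 0.0208 and, with all 6 PBS mice, 0.0273), with every PBS mouse of the 5 above every Ctrl mouse. Its levels were near the floor, at most 0.0615 FPKM in Ctrl and from 0.133 in PBS. The part of brown fat in the Hmox1 values was not tested.

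**Figure D3:**
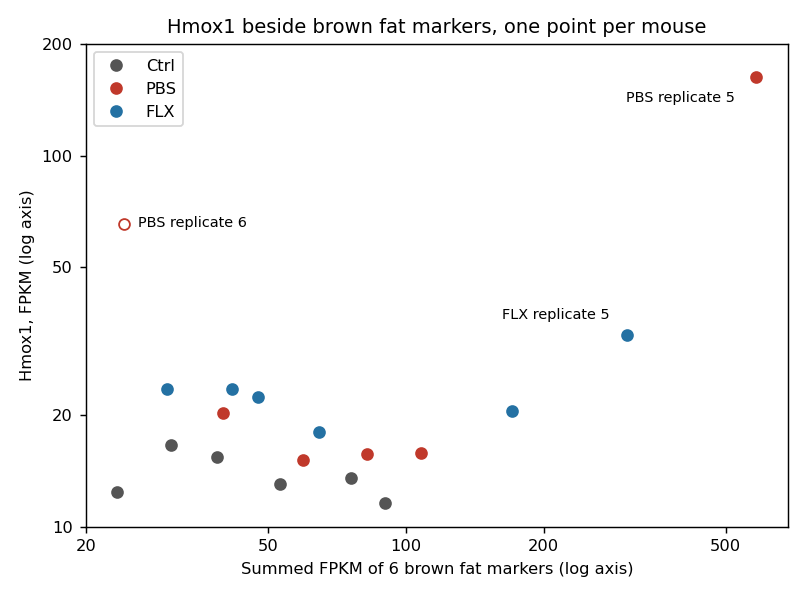
Hmox1 (FPKM) against the summed FPKM of 6 brown fat markers on log axes, 1 point per mouse, with PBS replicate 6 as an open circle. PBS replicate 5 lies highest on both axes, at 163 and 584 FPKM, and PBS replicate 6 has 65.5 FPKM of Hmox1 with 24.2 FPKM of the markers.

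Heme that is not broken down can leave the cell through exporters. Flvcr1, one of these, was the only gene of the heme breakdown and transport list (14 tested) to pass. It had 1.27 to 2.04 FPKM in Ctrl (n = 6), 2.53 to 4.72 in PBS (n = 5) and 2.65 to 3.30 in FLX (n = 6), and both defeated groups lay wholly above Ctrl. Its log2FC was 1.09 in PBS versus Ctrl (SE 0.16, adjusted p = 0.000730) and 0.79 in FLX versus Ctrl (SE 0.15, adjusted p = 0.0103), and it passed in both with all 6 PBS mice too (adjusted p = 0.000708 and 0.0217). FLX versus PBS was -0.30 (adjusted p = 0.522).

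Ferritin, the shell that stores iron, is built from a heavy chain with ferroxidase activity (Fth1, ENSMUSG00000024661, chr19:9980598-9985092, plus strand) and a light chain (Ftl1, ENSMUSG00000050708, chr7:45457944-45459884, minus strand). They were the members with the most RNA per length, ranked 34 and 19 among all genes by mean FPKM in Ctrl. Fth1 lay between 860 and 1141 FPKM in Ctrl (median 1001, n = 6), at 1067, 945, 984, 1013 and 918 in the 5 PBS mice, and between 955 and 994 in FLX (median 975, n = 6). Its coefficient of variation was the lowest of the members in PBS (5.93%) and FLX (1.56%), while in Ctrl (9.06%) that of Fech was lower (8.33%). Fth1 did not pass in any comparison, with log2FC values of -0.03 in PBS versus Ctrl (SE 0.09, adjusted p = 0.918), -0.11 in FLX versus PBS (SE 0.09, adjusted p = 0.738) and -0.13 in FLX versus Ctrl (SE 0.08, adjusted p = 0.382).

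Ftl1 lay between 1587 and 2977 FPKM in Ctrl (median 2721, n = 6), at 1815, 2084, 2247, 2181 and 1901 in the 5 PBS mice, and between 1536 and 2287 in FLX (median 2025, n = 6). The medians of both defeated groups were below the Ctrl median, but Ctrl replicate 3 (1587 FPKM) lay below all PBS mice and the groups overlapped. PBS versus Ctrl was -0.29 (SE 0.15, adjusted p = 0.324) and FLX versus Ctrl -0.42 (SE 0.14, adjusted p = 0.109). Without Ctrl replicate 3 both passed, at -0.40 (adjusted p = 0.0361) and -0.52 (adjusted p = 0.00539). FLX versus PBS was -0.13 (adjusted p = 0.843). Light to heavy chain RNA stood at a median ratio of 2.62 in Ctrl, 2.15 in PBS and 2.05 in FLX, with ranges that overlapped. Copies of the light chain gene in the table, Ftl1-ps1 and Ftl2-ps, had medians of 30.6 and 19.96 FPKM over the 18 mice, and how reads shared with them were assigned was not described, so Ftl1 is uncertain to that extent.

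PBS replicate 6 had 2148 FPKM of Fth1 and 3965 FPKM of Ftl1, both above the other 17 mice, with Lcn2 at 49.2 FPKM, Havcr1 at 9.75 and Spp1 at 3904. Lcn2 and Havcr1 mark injured tubules, and the 7 markers of that list summed to 4269 FPKM in this mouse against 345 to 594 in Ctrl, 635 to 1085 in the other PBS mice and 455 to 782 in FLX. All 7 were detected in each group. Over all 6 PBS mice the PBS versus Ctrl difference of Fth1 changed sign, from -0.03 to 0.22 (adjusted p = 0.500). The part of injured tubules in these values was not tested.

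Ncoa4, the receptor that carries ferritin to lysosomes for release of its iron, was the only gene of the 5 tested in the storage list to pass. It rose from 7.47 ± 0.919 FPKM in Ctrl (SD, n = 6) to 9.65 ± 1.28 in PBS (SD, n = 5), a log2FC of 0.38 (SE 0.09, adjusted p = 0.0188), and to 9.90 ± 0.706 in FLX (SD, n = 6), 0.32 (SE 0.08, adjusted p = 0.0388). All 6 FLX mice were above every Ctrl mouse, while PBS and Ctrl overlapped. With all 6 PBS mice in the model the FLX versus Ctrl difference did not pass (adjusted p = 0.250).

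Iron bound to transferrin enters cells by the transferrin receptor, encoded by Tfrc (ENSMUSG00000022797, chr16:32608920-32632794, plus strand), whose 4 hairpins in the 3′ UTR are printed above. Ctrl mice had 8.54 to 15.1 FPKM (median 13.8, n = 6) and FLX mice 6.57 to 14.5 (median 10.04, n = 6). The PBS mice had 26.7, 19.5, 33.6, 30.2 and 10.3 FPKM. Thus 4 of 5 PBS mice were above every Ctrl and every FLX mouse, and PBS replicate 5 was inside both ranges. Tfrc fell from 24.1 ± 9.31 FPKM in PBS (SD, n = 5) to 10.6 ± 3.34 in FLX (SD, n = 6), a log2FC of -1.29 (SE 0.26, adjusted p = 0.0252 from edgeR; exact permutation p = 0.0195). Of the 6 FLX mice, 3 were lower than all PBS mice. This call stood close to the threshold. It was lost with all 6 PBS mice (-1.17, adjusted p = 0.0509, PBS replicate 6 at 13.4 FPKM) and on leaving out FLX replicate 1, 3, 5 or 6 or PBS replicate 1, 3 or 4 (adjusted p up to 0.0922). The call was also lost under 7 of the 12 other alternatives, the one with all 6 PBS mice included. Without PBS replicate 5 it was -1.49 (adjusted p = 0.00337). PBS versus Ctrl was 0.87 (SE 0.26, adjusted p = 0.0677) and passed only without PBS replicate 5 (1.07, adjusted p = 0.00855) and with DESeq2 (adjusted p = 0.00933). FLX versus Ctrl was -0.42 (SE 0.25, adjusted p = 0.353). Clu of the injured tubule markers and S100a8 of the neutrophil markers also fell in FLX versus PBS, and the part of these cells in the Tfrc values was not tested.

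Slc11a2 (ENSMUSG00000023030, chr15:100387898-100424092, minus strand) encodes DMT1, the transporter that moves ferrous iron into cells and out of endosomes. It had 12.8 to 17.9 FPKM in Ctrl (median 16.9, n = 6), 13.8, 11.0, 15.5, 15.1 and 9.81 in the 5 PBS mice, and 10.02 to 13.4 in FLX (median 12.8, n = 6). Ctrl replicate 6 was the only Ctrl mouse inside the FLX range. Slc11a2 fell from 16.3 ± 1.84 FPKM in Ctrl to 12.4 ± 1.22 in FLX (SD, n = 6 each), a log2FC of -0.48 (SE 0.12, adjusted p = 0.0312; exact permutation p = 0.00866). The call was lost on leaving out Ctrl replicate 1, 2 or 5 or FLX replicate 3, 4 or 5 (adjusted p up to 0.0734) and under 6 of the 12 other alternatives. PBS versus Ctrl was -0.31 (SE 0.12, adjusted p = 0.180), and FLX versus PBS was -0.17 (SE 0.12, adjusted p = 0.678), so neither difference of the PBS mice passed.

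Of the 16 uptake genes tested, 11 had a log2FC above 0 in PBS versus Ctrl and only Slc39a14 passed, against 3.81% of all genes called. It encodes ZIP14, which carries iron not bound to transferrin as well as zinc. Slc39a14 rose from 2.72 ± 0.805 FPKM in Ctrl (SD, n = 6) to 4.61 ± 1.05 in PBS (SD, n = 5), a log2FC of 0.78 (SE 0.17, adjusted p = 0.0129), which passed with all 6 PBS mice as well (adjusted p = 0.00899). FLX mice had 3.08 ± 0.345 FPKM (SD, n = 6), and FLX versus PBS was -0.68 (adjusted p = 0.0697). Trf, the gene of transferrin, had 7.82 ± 2.30 FPKM in Ctrl, 18.6 ± 12.04 in PBS and 19.0 ± 17.9 in FLX. It was highest in the 2 mice with the most brown fat RNA, at 38.5 FPKM in PBS replicate 5 and 55.3 in FLX replicate 5. FLX replicate 2 had 13.4 FPKM of Trf with a brown fat sum of 171 FPKM. PBS replicate 6 had 26.4 FPKM of Trf with a sum of 24.2. The part of brown fat in the Trf values was not tested, and Trf did not pass in edgeR (adjusted p = 0.131 and 0.123 against Ctrl). Receptors of the tubule brush border that take up filtered iron carriers, Lrp2 and Cubn, had adjusted p of at least 0.282 in the 3 comparisons.

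Cp (ENSMUSG00000003617, chr3:19957054-20009145, plus strand) encodes ceruloplasmin, the copper ferroxidase that oxidizes iron as ferroportin releases it. It gave the smallest adjusted p of the members in PBS versus Ctrl and in FLX versus Ctrl. Ctrl mice had 2.04 to 3.58 FPKM (median 2.39, n = 6). The 5 PBS mice had 6.21, 8.00, 7.15, 8.26 and 5.51 FPKM, and FLX mice had 4.21 to 7.10 (median 4.84, n = 6). No Ctrl mouse reached the lowest mouse of either defeated group. Cp rose from 2.53 ± 0.541 FPKM in Ctrl to 7.03 ± 1.17 in PBS (SD, n = 6 and 5), a log2FC of 1.49 (SE 0.14, adjusted p = 2.46e-05; exact permutation p = 0.00216), and to 5.18 ± 1.08 in FLX (SD, n = 6), 0.95 (SE 0.14, adjusted p = 0.00159; exact permutation p = 0.00216). FLX versus PBS was -0.54 (SE 0.14, adjusted p = 0.0952), and 4 of 6 FLX mice were lower than all PBS mice. It passed only without Ctrl replicate 3 (adjusted p = 0.0455), without FLX replicate 4 (0.0469), without PBS replicate 5 (0.0425) and with DESeq2 (0.0156). Those are 3 of 17 fits with 1 mouse left out (adjusted p up to 0.275) and 1 of 12 other alternatives (adjusted p up to 0.688). PBS replicate 6 had 13.9 FPKM, the highest of all mice, and with it PBS versus Ctrl was 1.69 (adjusted p = 8.76e-05).

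Iron leaves the cell through ferroportin, encoded by Slc40a1 (ENSMUSG00000025993, chr1:45908068-45926523, minus strand), which carries a hairpin in its 5′ UTR. It had 3.15 to 4.84 FPKM in Ctrl (median 4.01, n = 6), 4.23, 3.13, 4.85, 6.02 and 5.23 in the 5 PBS mice, and 3.39 to 4.96 in FLX (median 4.07, n = 6). The groups overlapped in each comparison. The log2FC values were 0.23 in PBS versus Ctrl (SE 0.14, adjusted p = 0.440), -0.30 in FLX versus PBS (SE 0.14, adjusted p = 0.443) and -0.07 in FLX versus Ctrl (SE 0.14, adjusted p = 0.808). PBS replicate 6 had 7.56 FPKM, above the other 17 mice. Heph, the membrane-bound relative of Cp, had an adjusted p of at least 0.570 in the 3 comparisons. The 7 genes of the hepcidin axis in the table included Hamp, the gene of hepcidin, the hormone that triggers the decay of ferroportin, at 0 FPKM in all Ctrl and FLX mice. None of the 3 genes of this axis that could be tested passed with 5 PBS mice, and with all 6 Bmp6, which raises hepcidin, passed in PBS versus Ctrl (adjusted p = 0.0425).

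Ireb2 (ENSMUSG00000032293, chr9:54863789-54912530, plus strand) encodes IRP2, one of the proteins that bind the hairpins. It lay between 6.95 and 9.61 FPKM in Ctrl (median 8.09, n = 6), at 6.85, 8.02, 8.40, 6.98 and 7.03 in the 5 PBS mice, and between 7.14 and 8.91 in FLX (median 7.78, n = 6). The groups overlapped, and the log2FC values of -0.09, -0.00 and -0.10 in the 3 comparisons each had an SE of 0.08 (adjusted p = 0.592, 0.994 and 0.503). Aco1, which encodes IRP1, had adjusted p of at least 0.679. IRP2 is controlled by protein decay, for which Fbxl5 provides the iron-sensing subunit of a ubiquitin ligase. Fbxl5 fell in PBS versus Ctrl, from 6.47 ± 0.386 FPKM in 6 mice to 5.25 ± 0.769 in 5 mice (mean ± SD), a log2FC of -0.30 (SE 0.08, adjusted p = 0.0303; 0.0195 with all 6 PBS mice). FLX mice had 6.63 ± 0.320 FPKM (SD, n = 6), all above every PBS mouse, and FLX versus PBS was 0.25 (adjusted p = 0.152).

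The wider lists of iron and heme metabolism held 83 gene names, of which 80 matched a gene in the table. Of these, 75 genes, members included, could be tested. Among the 65 that are not members, 3 were higher and 1 lower in PBS versus Ctrl, 1 was higher in FLX versus PBS, and 2 were higher and 1 lower in FLX versus Ctrl. These counts lie near the shares of all genes called, 3.81%, 0.726% and 3.67%. Flvcr1, Ncoa4, Slc39a14, Fbxl5 and Clpx are described above. Hscb, a chaperone of iron-sulfur cluster assembly, fell from 21.5 ± 3.92 FPKM in Ctrl to 15.9 ± 2.64 in FLX (SD, n = 6 each), by 0.53 on the log2 scale (SE 0.13, adjusted p = 0.0346). It was the only one of 16 mitochondrial iron and iron-sulfur cluster genes to pass in any comparison. The median log2 fold change of those 16 genes in FLX versus Ctrl was -0.21, against -0.01 over all genes, with 3 of 16 above 0. Across the 75 genes, medians were -0.02, -0.08 and -0.07 in the 3 comparisons, close to the -0.01, -0.00 and -0.01 of all genes.

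**Figure D4:**
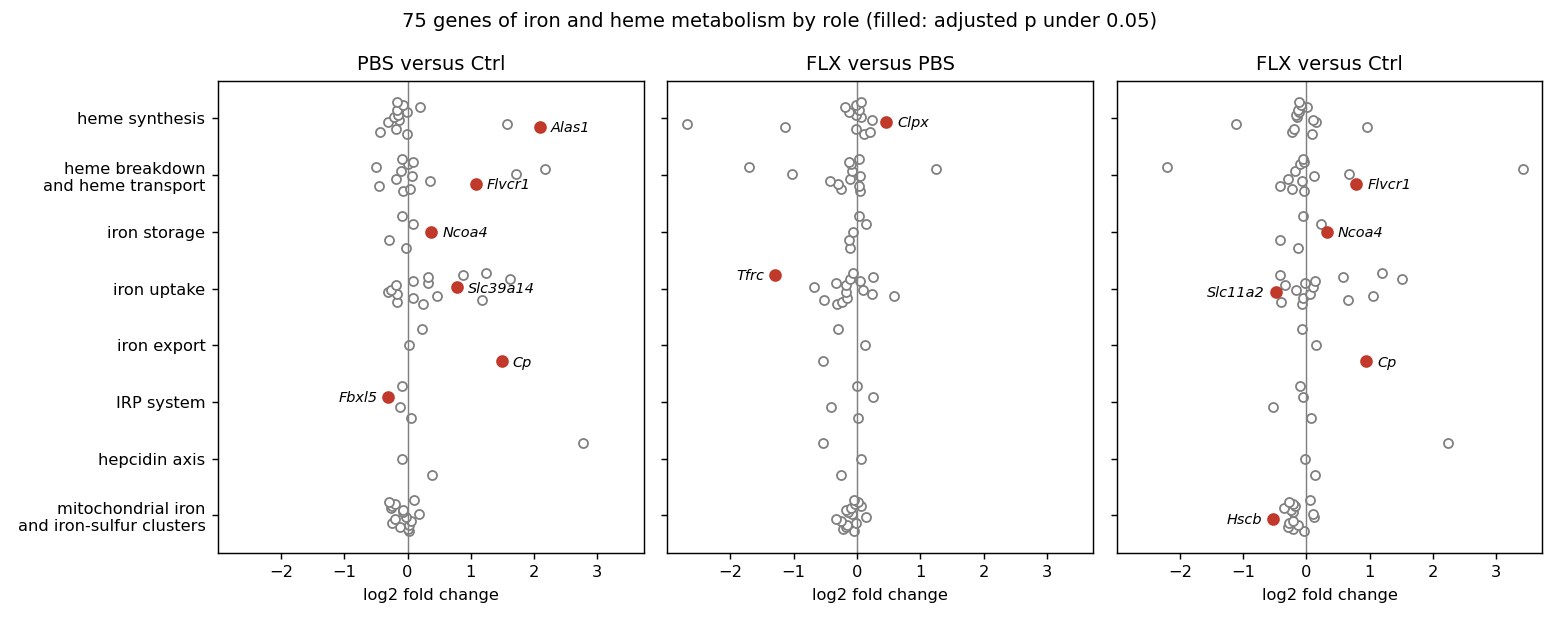
log2 fold change of 75 genes of iron and heme metabolism, grouped by role, in PBS versus Ctrl, FLX versus PBS and FLX versus Ctrl (edgeR, 5 PBS mice), 1 circle per gene. Filled, named circles have an adjusted p under 0.05; each list holds at most 1 of them in a comparison.

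Other cell markers moved in the same comparisons. Neutrophil markers summed to 1.33 to 3.41 FPKM in Ctrl, 7.04 to 25.8 in PBS and 0.379 to 5.50 in FLX, and 3 of the 6 tested, S100a8, S100a9 and Ngp, rose in PBS versus Ctrl. Ngp and Camp were at 0 in all Ctrl mice and Ly6g in all FLX mice. Macrophage markers summed to 50.3 to 60.2 FPKM in Ctrl, 53.7 to 74.7 in PBS and 42.2 to 95.5 in FLX, with none of 9 tested past the threshold and none at 0 throughout a group. Of the injured tubule genes, Clu and Spp1 rose in PBS versus Ctrl (log2FC 0.98 and 0.91, adjusted p = 0.000464 and 0.00797), and Clu fell in FLX versus PBS by 0.69 (adjusted p = 0.0222). Vcam1 of the same list rose in FLX versus Ctrl, with a log2FC of 0.83 (adjusted p = 0.0269; 0.0379 with all 6 PBS mice). Kap, an androgen-dependent gene of the proximal tubule and the highest of its list, fell in PBS versus Ctrl by 0.73 (adjusted p = 0.00476), while Miox of the same list rose by 0.46 (adjusted p = 0.0375; 0.575 with all 6 PBS mice). Among the 7 markers of other nephron segments and the glomerulus, led by Umod, none passed. The part of these cells in the member values was not tested.

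Clock genes, which follow the time of day, also differed. Of 10, 8 passed in FLX versus PBS (2 higher, 6 lower) and 8 in FLX versus Ctrl (3 higher, 5 lower), and 1, Per1, rose in PBS versus Ctrl. They summed to 23.7 to 30.7 FPKM in FLX, against 44.2 to 79.9 in Ctrl and 44.4 to 82.6 in PBS. Dbp had 15.9 ± 5.07 FPKM in Ctrl (SD, n = 6) and 1.14 ± 0.355 in FLX (SD, n = 6). Per1 had 14.9, 7.56, 9.06, 16.4 and 13.2 FPKM in the 5 PBS mice and 1.82 to 4.12 in Ctrl (n = 6), and PBS replicates 1 and 4, highest for Alas1, were also highest for Per1 among the 5. PBS replicate 2 had the lowest Per1 of the 5, with 38.5 FPKM of Alas1. PBS replicate 6 had 15.4 FPKM of Per1 with 28.1 FPKM of Alas1. The part of the clock in the member values was not tested.

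FLX libraries fell into a pair of depths, and the members were set side by side within them. FLX replicates 1 and 2, as deep as the other groups, had 25.1 and 27.9 FPKM of Alas1, 9.04 and 14.4 of Tfrc, 12.7 and 12.9 of Slc11a2 and 4.21 and 5.72 of Cp. FLX replicates 3 to 6 had 16.8 to 30.8, 6.57 to 14.5, 10.02 to 13.4 and 4.40 to 7.10 FPKM of the same genes. These ranges overlapped for all 4 genes. Of the other members only Slc40a1 did not overlap, at 3.39 and 3.65 FPKM in FLX replicates 1 and 2 and 3.79 to 4.96 in FLX replicates 3 to 6. With FLX replicates 3 to 6 alone, Tfrc in FLX versus PBS was -1.40 (adjusted p = 0.0742), Slc11a2 in FLX versus Ctrl was -0.53 (adjusted p = 0.0762) and Cp in FLX versus Ctrl was 0.95 (adjusted p = 0.0110). With FLX replicates 1 and 2 alone they were -1.09 (adjusted p = 0.616), -0.38 (adjusted p = 0.543) and 0.94 (adjusted p = 0.0839).

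**Figure D5:**
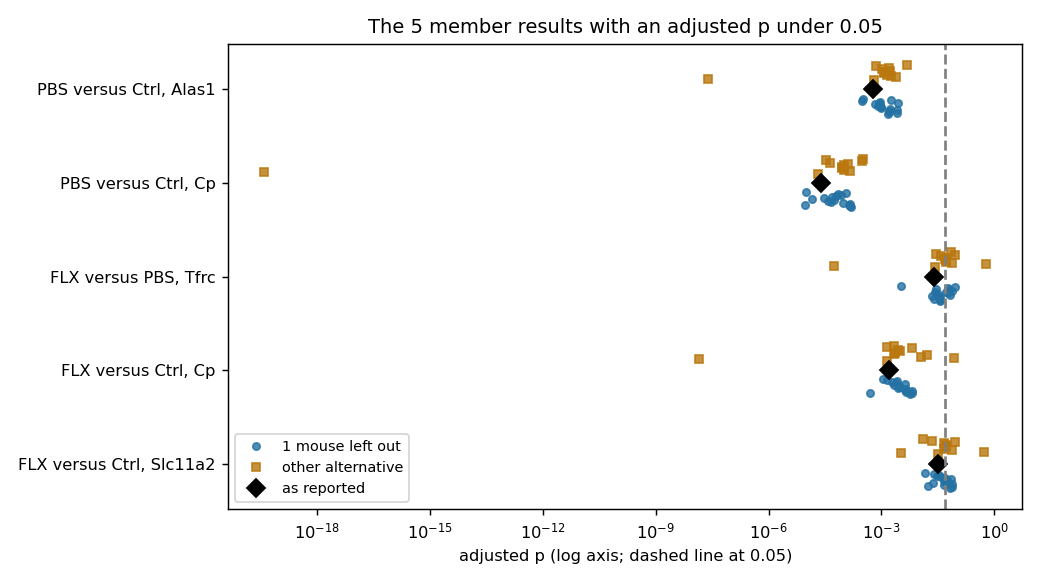
Adjusted p (log axis) of the 5 member results that passed, as reported (diamonds), with 1 mouse left out at a time (circles) and under the other alternatives (squares), with the 0.05 threshold dashed. Alas1 and Cp in PBS versus Ctrl stay left of the line throughout, Cp in FLX versus Ctrl crosses it once, and Tfrc and Slc11a2 scatter across it.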

How the data were processed

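Right kidneys of 18 mice were profiled by paired-end poly(A) RNA sequencing. Per the study's methods, the authors cleaned reads with fastp, mapped them to GRCm38 with HISAT-3N and estimated transcript levels with StringTie; the submitters' processing notes name cutadapt 1.9, HISAT2 2.0.4, UMI-tools, StringTie 1.3.4d, DESeq2 and edgeR. In the table the authors deposited, each gene has an FPKM value and an estimated count in every mouse. The tool behind the counts was not stated. All were whole, yet per mouse a median of 720 genes held 4 counts while 484.5 held 3 and 268 held 5, so they were treated as estimates and used unchanged.

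Groups were compared with edgeR 4.0.16 (R 4.3.3) by the two-sided quasi-likelihood test, in 1 model of the 3 groups with TMM scaling and filterByExpr, over 17 mice, and p was adjusted by Benjamini-Hochberg over 20251 genes. Single members were also tested by an exact two-sided permutation test of mean log2(FPKM + 0.1), unadjusted, with 30 tests in all. Alternatives were DESeq2 1.42.0, limma 3.58.1 on log2(FPKM + 0.1), + 1 or + 0.01, other scaling, no filter, all 6 PBS mice, 2-group fits, parts of the FLX group, a replicate block and leaving out each mouse. The edgeR step was tested on simulated data. Levels are mean FPKM ± SD. The members and gene lists were chosen with earlier results of these data known. Besides the 10 members, the text names genes of the iron and heme lists with an adjusted p under 0.05 and the highest gene of a marker list; Alas2, Trf, Lrp2, Cubn, Heph, Hamp, Bmp6, Aco1 and the marker and clock genes were added after their values were seen. Coordinates are GRCm38, as deposited. Of the listed names, Ftmt, Hfe2, Fam132b and Mpo did not match a gene name. Hjv and Erfe, the other names listed for Hfe2 and Fam132b, did match.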

Additional observations from a re-analysis of the deposited data

Results flagged for a closer look

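In groups of 5 or 6 mice, a highest or lowest value was set apart when its gap to the nearest other mouse took up more of the group's range than Dixon's critical value allows. Of 40 groups of values examined, 10 held such a mouse, where chance gives about 1 in 20 groups (2 of 40); groups with and without PBS replicate 6 share mice. PBS replicate 5 stood apart for Hmox1, at 163 FPKM, among 5 and among 6 PBS mice. PBS replicate 6 stood apart among 6 PBS mice for Fth1 (2148 FPKM), Ftl1 (3965), Cp (13.9) and Fech (9.91). Single mice stood apart in the other groups: Ctrl replicate 6 was low for Tfrc (8.54 FPKM), Ctrl replicate 3 was high for Cp (3.58) and Fech (9.96), and FLX replicate 3 was low for Slc11a2 (10.02). PBS replicate 6, outside the main comparisons, also had the highest level of all 18 mice for Fth1 (2148 FPKM), Ftl1 (3965), Slc40a1 (7.56) and Cp (13.9).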

How the results depend on the processing

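Of 867 member values under 29 alternatives, 792 kept their direction and their side of an adjusted p of 0.05, 27 lost the call, 28 gained one and 20 changed sign, all 20 for differences that were not called. Alas1 and Cp in PBS versus Ctrl passed under every alternative (log2 fold change 1.79 to 2.29 and 1.18 to 1.69). With all 6 PBS mice, Fth1 in PBS versus Ctrl was 0.22 and Fech in FLX versus PBS -0.000633. In FLX versus PBS, Ireb2 was 0.018 with FLX replicates 1 and 2 only, 0.012 with upper-quartile scaling and 0.089, 0.088 and 0.079 with limma at pseudocounts of 0.01, 0.1 and 1, and Ftl1 was 0.037 with FLX replicates 1 and 2 only. Slc40a1 in FLX versus Ctrl was 0.000352 with FLX replicates 3 to 6 only and 0.017, 0.016 and 0.012 with limma at the same pseudocounts. Leaving out 1 mouse, Fth1 in PBS versus Ctrl ran from -0.078 to 0.027, Hmox1 in FLX versus PBS from -1.25 to 0.38 and Ireb2 in FLX versus PBS from -0.036 to 0.032.

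Genes called in PBS versus Ctrl (772) were 1424 with DESeq2 and 496 in the fit of 2 groups. In FLX versus PBS (147) they were 498 with DESeq2, 244, 255 and 242 with limma at the 3 pseudocounts, 88 without the filter, 95 in the fit of 2 groups, 38 with FLX replicates 3 to 6 only and 0 in edgeR with FLX replicates 1 and 2 only, where 1323 had an unadjusted p under 0.05. In FLX versus Ctrl (744) they were 1645 with DESeq2, 1165, 1214 and 1197 with limma, 378 without the filter, 354 with all 6 PBS mice, 179 with FLX replicates 3 to 6 only and 4 with FLX replicates 1 and 2 only. Members called in FLX versus PBS (1) were 3 with DESeq2 and 0 with all 6 PBS mice, either part of the FLX group, limma at 0.01 or 1, and the fit of 2 groups. In FLX versus Ctrl (2) they were 4 with DESeq2 and in the fit of 2 groups, 1 with FLX replicates 3 to 6 only and 0 with FLX replicates 1 and 2 only. Leaving out 1 mouse gave 388 to 1662, 47 to 250 and 271 to 3099 genes, and 2 to 3, 0 to 3 and 1 to 4 members, in the 3 comparisons; the highest gene counts came without Ctrl replicate 3 and the lowest without PBS replicate 1, PBS replicate 4 and Ctrl replicate 5. Upper-quartile scaling turned the split of genes in PBS versus Ctrl from 433 higher and 339 lower to 314 and 449, and that in FLX versus Ctrl from 422 and 322 to 340 and 412. With limma at 0.1, the split was 979 and 235 in FLX versus Ctrl and 192 and 63 in FLX versus PBS. The cause of these shifts was not tested, beyond the smaller number of mice where mice were left out.

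The labels do not say whether replicate numbers pair the mice. Over 16 pairs with the same number, the correlation of deviations from the group mean ran from -0.20 to 0.23 (median -0.03). Over 80 pairs with different numbers it ran from -0.21 to 0.16 (median -0.004). Such ranges cannot settle whether mice were paired. The replicate block gave 419, 67 and 258 genes in the 3 comparisons and 2, 0 and 2 members. No difference between comparisons was tested, and depth limits FLX replicates 3 to 6 most, though every member had at least 1662 counts.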
